A study of Mus musculus with 18 samples.

Results

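The chromatin accessibility catalog of mouse bone marrow-derived macrophages (BMDMs) was examined at the genes of the class I and class IIa histone deacetylases. These 8 genes are Hdac1, Hdac2, Hdac3 and Hdac8 of class I and Hdac4, Hdac5, Hdac7 and Hdac9 of class IIa. They were taken by name out of 21938 protein-coding genes of GENCODE M21. Reference peaks were assigned to a gene when they overlapped its body or lay within 50 kb of its most upstream annotated start site. By this rule 140 of 82391 reference peaks on the mm10 genome belonged to the 8 genes, 42 of them around class I and 98 around class IIa genes. They held 143 summits, each with a score given in the deposited list, and lay in 106 of the 59617 extended regions, which are wider intervals around the peaks.

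ATAC-seq, in which the Tn5 transposase inserts adapters into open chromatin, was run on 18 libraries in 9 groups of 2. The BMDMs were wild type and came from male C57/BL6 mice aged 6 to 8 weeks. In every group the cells first received the solvent DMSO for 1 h, and 1 group stayed without stimulus. The remaining groups received either LPS, a bacterial cell wall component, or the cytokine IL-4, both at 10 ng/mL, for 30 min, 1 h, 2 h or 4 h. The reference peaks, summits and extended regions are pooled lists over all groups, with no value per library. A listed peak therefore does not tell in which group it was open, nor in what share of the cells, and no comparison between stimuli, times or replicates could be made here. By the study's methods only peaks that passed a strict q-value and overlapped between replicates were kept, so a site without a listed peak may still have been accessible. All counts and scores below describe this catalog once, with no replicate error and no test.

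Histone deacetylases remove acetyl groups from lysines of histone tails, an activity that opposes the acetyltransferases and is linked to lower transcription. Class I enzymes are nuclear and mostly work as the catalytic subunits of corepressor complexes: HDAC1 and HDAC2 in the SIN3, NuRD and CoREST complexes, and HDAC3 in the NCoR complex. Class IIa proteins have little catalytic activity of their own, bind the MEF2 transcription factors through their amino-terminal part, and leave the nucleus bound to 14-3-3 proteins once kinases have phosphorylated them. In macrophages both classes are studied as regulators of inflammatory gene expression.

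The cell type label was checked against marker genes. All 9 macrophage markers had a reference peak within 1000 bp of an annotated start site, among them Csf1r, Spi1 and Cd68. Of the T cell markers 1 of 5 had such a peak, namely Lck, which lies in the window of Hdac1. The counts were 2 of 4 for B cells, 1 of 4 for neutrophils, 2 of 4 for fibroblasts and 3 of 4 for endothelial cells. Over all coding genes the share was 56.5%.

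Of the 8 deacetylase genes, 7 had a reference peak within 1000 bp of an annotated start site, against 56.5% of all coding genes. Hdac7 was without such a peak. At the most upstream start site 6 of 8 had a peak, against 52.1% of coding genes, since the strongest start site peak of Hdac9 lay far inside the gene. The best summit score at a start site had a median of 1308 over the 7 genes, below the median of 1456 (interquartile range 1071 to 1799) over the 12402 coding genes with such a peak. Of the 7 scores, 3 lay above this interquartile range, 2 within it and 2 below it. In descending order they were 2153 at Hdac4, 1969 at Hdac1, 1942 at Hdac5, 1308 at Hdac3, 1188 at Hdac9, 900 at Hdac2 and 467 at Hdac8. With no replicate values, it could not be tested whether neighbours in this order, such as Hdac1 and Hdac5, differ. The medians were 1104 for the 4 class I genes and 1942 for the 3 class IIa genes with a peak.

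**Figure D1:**
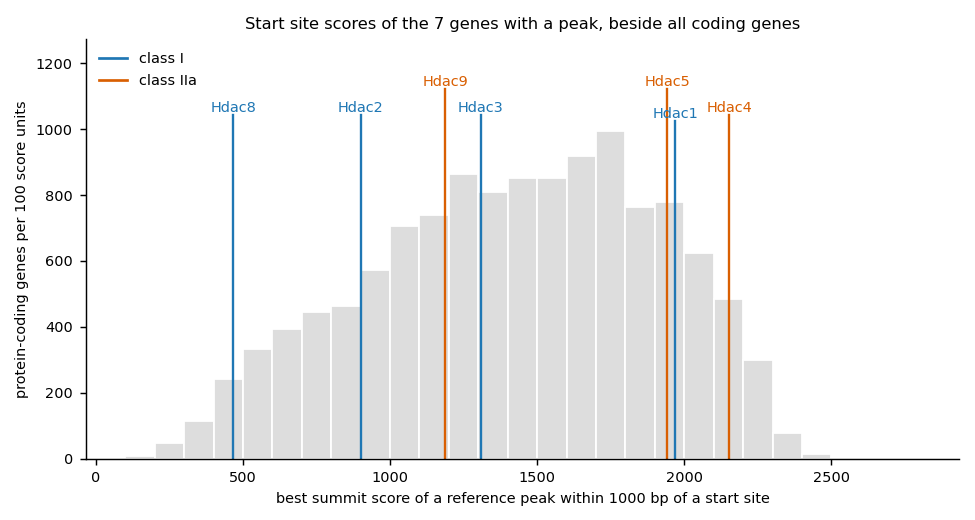
Best summit score within 1000 bp of a start site (horizontal axis) for all coding genes with such a peak (grey bars, genes per 100 score units) and for the 7 deacetylase genes with a peak (vertical lines, class I in blue, class IIa in orange). Hdac8 at 467 sits in the low tail and Hdac4 at 2153 near the upper end. Hdac7 has no score.

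Among class I genes, Hdac1 encodes a catalytic subunit of most class I complexes. It lies at chr4:129516104-129542713 on the minus strand and had the highest start site score of its class. That peak spanned its coding start site, scored 1969 and stood at the 86.1st percentile of coding genes with a start site peak. The gene's GC content around this summit was 69.3% over 501 bases, with an observed to expected CpG ratio of 0.858. The medians over the best start site peaks of coding genes were 61.3% and 0.768. The annotation lists 5 groups of start sites for Hdac1 (sites at most 500 bp apart were joined), but the other 4 belong to noncoding transcripts only.

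A second feature of Hdac1 was a run of 6 low and wide peaks near the 3′ end of the gene, between 129516568 and 129519845. They covered 2663 of 3278 bp and scored 324 to 685, all below the median of 737 over all summits. All 6 lay in 1 extended region of 4678 bp, the extended region with the most peaks in any of the 8 windows. Of these peaks, 4 counted as start site peaks because a retained-intron transcript begins among them. Their summits lay in an untranslated or noncoding exon (the peak of 685), in a coding exon (the peak of 384) and in introns (the other 4). The 76 bases centred on the summit occurred once in the genome for 141 of all 143 summits. Both exceptions belonged to this run, with 2 copies at the peak of 384 and 11 copies at that of 358. The part of repeated sequence in these peaks was not tested. Without the run, Hdac1 kept its start site peak and its score of 1969.

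Hdac2, the closest paralog of Hdac1, lies on chr10. Its window held 2 reference peaks. The start site peak, chr10:36974141-36974683, scored 900, at the 16.8th percentile, and its summit lay 277 bp upstream of the start site in a CpG-rich stretch with 66.7% GC and a CpG ratio of 0.853. The other peak lay 39.9 kb downstream of the start site, beyond the gene's end, and scored 544. No peak other than that at the start site lay in the gene body of 27.3 kb. The summit sequence is shown because this promoter was CpG-rich but low in score and held none of the 15 motifs searched below (chr10:36974167-36974367, plus strand, mm10, all in lower case since no motif matched).
Hdac2 start site: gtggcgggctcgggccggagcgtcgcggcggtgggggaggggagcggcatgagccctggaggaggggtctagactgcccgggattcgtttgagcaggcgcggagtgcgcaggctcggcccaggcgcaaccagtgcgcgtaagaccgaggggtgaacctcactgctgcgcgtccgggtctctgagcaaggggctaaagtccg

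Hdac8 encodes a class I enzyme that deacetylates the cohesin subunit SMC3. It lies on the X chromosome at chrX:102284639-102505359 and had 1 reference peak in its whole window and gene body, although the body is 221 kb long. This peak, chrX:102505146-102505430, scored 467, the lowest start site score among the members. It stood at the 2.55th percentile of coding genes with a start site peak. Among the X-linked coding genes of these male mice, the median over the 342 of 948 with a start site peak was 1260. Within this set, Hdac8 stood at the 3.51st percentile. The summit region had 49.1% GC and a CpG ratio of 0.403, both below the 25th percentiles of 55.7% and 0.574 for start site peaks.

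The catalytic subunit of the NCoR complex, Hdac3, shared its start site peak with another gene. The start sites of Hdac3 and Rell2, which is transcribed in the opposite direction, lie 63 bp apart, and the peak of 1308 (40.1st percentile) covered this shared promoter. No peak lay elsewhere in the gene body of 19.2 kb. The window was nevertheless dense, with 15 reference peaks, of which 7 lay at start sites of other coding genes and 7 away from any start site. Start site peaks were found for all 4 coding neighbours, which were Rell2, Fchsd1 (1188), Diaph1 (1955) and Arap3 (1657). Of the 15 peaks, 1 had Hdac3 as the gene with the nearest coding start site. The best scores away from start sites were 1531, 1468 and 1443, the first and second of these nearest to Diaph1 and the last nearest to Arap3.

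**Figure D2:**
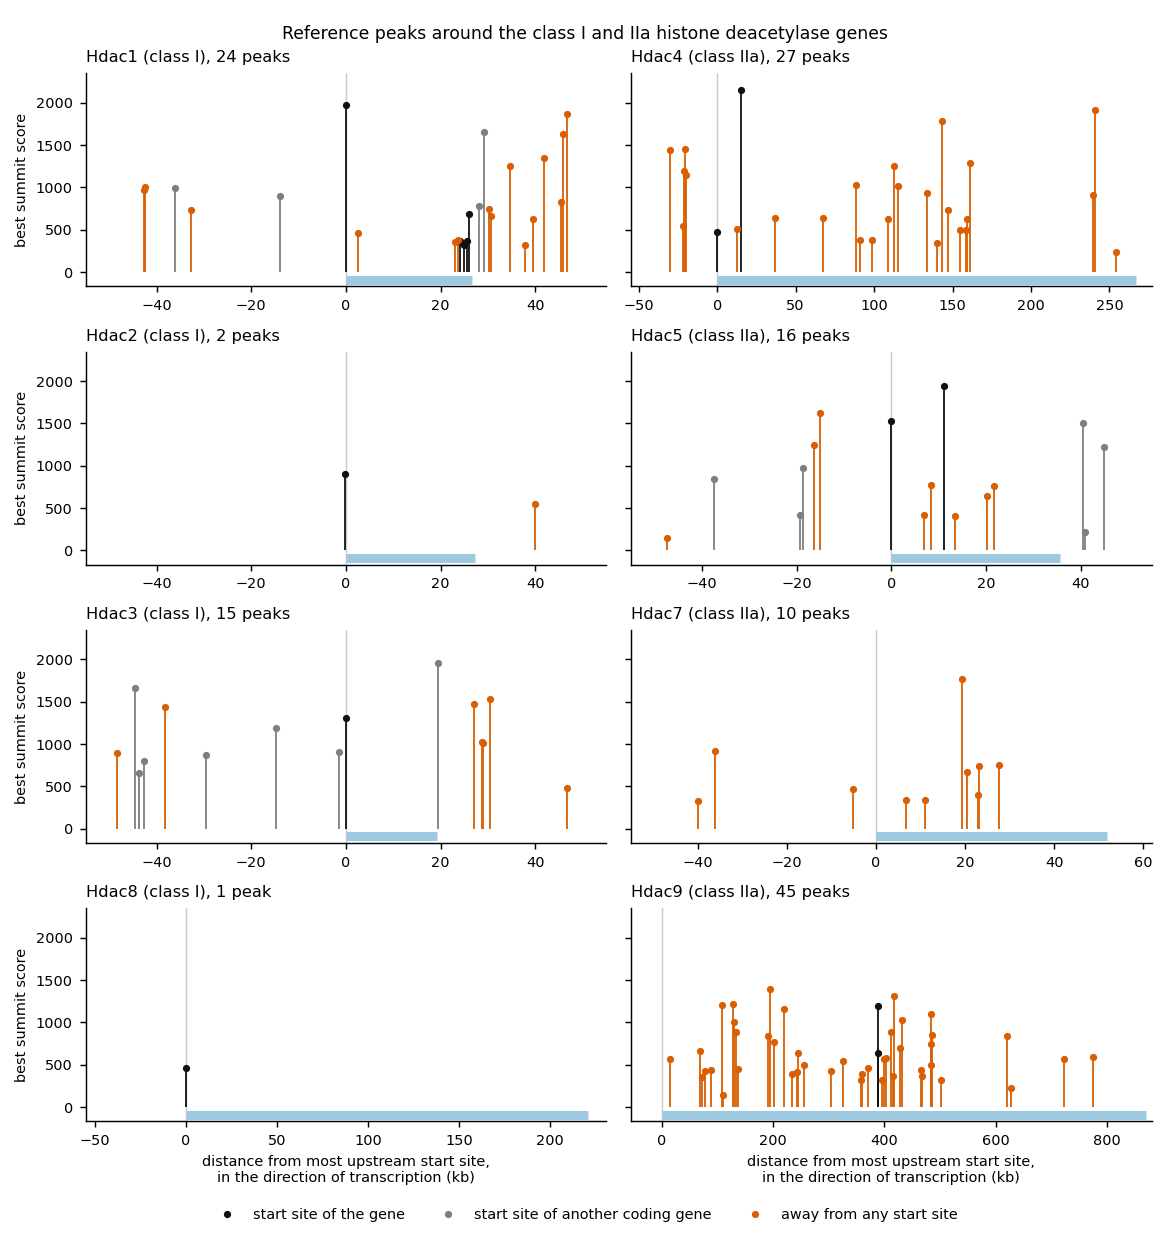
Best summit score of each reference peak (vertical axis) against its distance in kb from the most upstream start site, in the direction of transcription (horizontal axis, a scale for each gene). Black marks peaks at start sites of the gene, grey those at start sites of other coding genes and orange those away from start sites; the blue bar is the gene body. Hdac8 has 1 peak and Hdac9 has 45, and the strongest peak of Hdac4 lies inside the gene.

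The class IIa genes had start site peaks in the interior of the annotated gene (Hdac4, Hdac5 and Hdac9), and all 4 had peaks in introns. Hdac4, whose product binds MEF2 and is known for its part in muscle and cartilage, lies at chr1:91928779-92195699 on the minus strand. Its most upstream start site, used by noncoding transcripts only, had a peak of 476. The coding start site 15.4 kb further downstream lay in the widest peak of all members, chr1:92180190-92181028, of 839 bp and 2 summits. The score of 2153 put it at the 95.3rd percentile of coding genes with a start site peak. Of the 8 start site groups of Hdac4, these 2 had a peak. This summit region was CpG-rich, with 62.9% GC and a CpG ratio of 0.891.

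Hdac5 encodes a deacetylase that is phosphorylated and exported from the nucleus upon calcium signaling. On chr11, 2 of its 8 start site groups had a peak, both of them used by coding transcripts. The third coding group had its nearest peak 6.70 kb away. The most upstream peak, chr11:102230097-102230471, scored 1531. The second, chr11:102218793-102219202, scored 1942 (84.6th percentile) and lay at an internal coding start site 11.2 kb downstream. They differed in base composition. The CpG ratio was 0.916 at the upstream and 0.230 at the internal start site, at 63.5% and 65.7% GC. Both summits had a match to the MEF2 motif in the 100 bp on each side, which was the case for 0.683% of the best start site peaks of coding genes. The upstream summit also had an E-box (CACGTGAC) match, which is not in the shorter stretch printed below.

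Hdac9 is the longest of the 8 genes, at chr12:34047580-34917095 on the minus strand. No peak lay within 1000 bp of its most upstream start site, used by a noncoding transcript only, and the nearest was 15.3 kb away. Of its 4 coding start site groups 2 had a peak, and of its 2 noncoding groups 0 had one. The start site peaks lay 388 kb downstream of the most upstream start site, at the start of coding transcripts. Of these, chr12:34528829-34529022 scored 1188 (32.4th percentile) and chr12:34529273-34529487 scored 634. Around both summits the sequence was poor in CpG, with ratios of 0.206 and 0.271 at 44.5% and 42.1% GC.

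Hdac7, known for its roles in thymocytes and endothelial cells, was the member with no start site peak. None of its 11 start sites, in 5 groups, had a reference peak within 1000 bp. The nearest peak, chr15:97833269-97833479 with a score of 341, lay 1502 bp from a start site of the second group. This group is CpG-rich. The RefSeq promoters (250 bases before to 50 after the start) at chr15:97831446-97831745 and chr15:97831718-97832017 had CpG ratios of 0.795 and 1.09, against a median of 0.384 over 32851 RefSeq promoters of GRCm38.p6. At other start sites of the gene, the RefSeq promoters chr15:97844453-97844752 and chr15:97814814-97815113 had lower ratios, 0.283 and 0.185. None of these promoters overlapped a reference peak. The strongest peak of the gene lay instead in an intron, chr15:97825005-97825392, with a score of 1773 at the 97.9th percentile of all peaks away from start sites. Within 2500 bp of a start site, rather than 1000 bp, Hdac7 did have a peak and the count rose to 8 of 8.

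The sequences of these class IIa elements are given on the minus strand, which is that of the genes, with motif matches in capitals. They are the 100 bp on each side of a summit without annotated exon bases. For Hdac7 the sequence is the most CpG-rich of its RefSeq promoters, none of which overlapped a peak, also without exon bases. Their positions on mm10 are chr1:92180366-92180566 for the Hdac4 start site, where the capitals mark a STAT6 match, and chr11:102230167-102230326 and chr11:102218930-102219075 for the upstream and internal start sites of Hdac5, where they mark the MEF2 matches. The Hdac9 start site is chr12:34528875-34529038. Its capitals, TGATTCA, mark a match to the AP-1 pattern TGANTCA, in which N stands for any base. The Hdac7 promoter is chr15:97831768-97832017 and holds none of the motifs. Other RefSeq promoters of Hdac7 did hold matches, AP-1 and CTCF at chr15:97814814-97815113 and CTCF at chr15:97831446-97831745.
Hdac4 start site: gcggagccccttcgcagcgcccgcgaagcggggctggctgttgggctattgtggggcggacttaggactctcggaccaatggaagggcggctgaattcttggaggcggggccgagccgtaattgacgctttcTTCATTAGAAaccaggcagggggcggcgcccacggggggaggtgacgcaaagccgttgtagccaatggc
Hdac5 upstream start site: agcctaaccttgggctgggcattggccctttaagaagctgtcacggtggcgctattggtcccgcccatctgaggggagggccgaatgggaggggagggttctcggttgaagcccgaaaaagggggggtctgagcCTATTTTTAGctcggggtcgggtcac
Hdac5 internal start site: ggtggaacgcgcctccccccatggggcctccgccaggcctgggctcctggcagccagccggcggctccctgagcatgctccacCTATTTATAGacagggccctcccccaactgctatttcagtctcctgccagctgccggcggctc
Hdac9 start site: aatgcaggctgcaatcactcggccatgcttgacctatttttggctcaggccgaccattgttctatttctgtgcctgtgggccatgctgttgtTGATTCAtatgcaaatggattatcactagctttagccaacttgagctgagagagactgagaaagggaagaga
Hdac7 promoter without a peak: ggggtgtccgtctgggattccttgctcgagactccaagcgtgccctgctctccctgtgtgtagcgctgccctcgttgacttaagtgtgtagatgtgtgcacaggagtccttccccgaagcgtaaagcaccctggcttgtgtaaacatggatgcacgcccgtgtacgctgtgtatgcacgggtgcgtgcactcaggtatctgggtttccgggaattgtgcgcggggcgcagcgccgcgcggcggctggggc

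The classes were set side by side for peaks inside the gene body and over 1000 bp from any annotated start site. Class IIa bodies held 75 such peaks in 1224 kb and class I bodies 3 in 294 kb, or 6.13 and 1.02 per 100 kb. Each pooled rate was weighted towards 1 long gene. Hdac8, with 0 such peaks, made up 221 of the 294 kb, and Hdac9 made up 870 of the 1224 kb. With gene bodies of the longest protein-coding transcript, the class IIa count was 50. All 3 class I peaks were in Hdac1, and 2 of them belonged to the run at its 3′ end. Hdac4 had 20, Hdac5 had 5, Hdac7 had 7 and Hdac9 had 43, whereas Hdac2, Hdac3 and Hdac8 had 0. Since longer genes have more room, each was set against coding genes of its own size class. Per 100 kb the values were 14 for Hdac5, 13.5 for Hdac7 and 11.3 for Hdac1, against a median of 1.82 for genes of 15 to 60 kb and 3.43 for those of them with a start site peak. They were 7.49 for Hdac4 and 4.95 for Hdac9, against 0.761 for genes of 200 kb or longer and 2.99 for those of them with a start site peak. The 4 class IIa genes stood between the 82.8th and the 93.2nd percentile of their size classes. Hdac1 stood at the 89.1st, but without the run at its 3′ end it had 1 such peak, or 3.76 per 100 kb, at the 62nd percentile, and class I as a whole had 0.340 per 100 kb. Hdac2 and Hdac3, with 0 such peaks, stood at the 24.5th. Hdac8, also with 0 and in the same size class as Hdac4 and Hdac9, stood at the 16.3rd. Since ties are split evenly, these are the ranks shared by all genes of the size class with 0 such peaks, and no gene ranks lower.

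**Figure D3:**
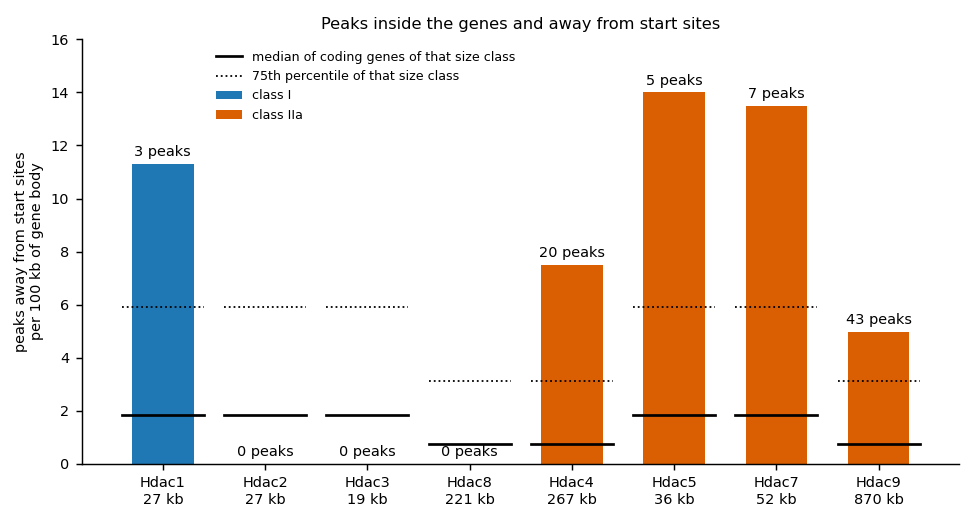
Peaks inside the gene and over 1000 bp from any start site, per 100 kb of gene body (vertical axis), for each gene with its length (class I in blue, class IIa in orange, the number of peaks above each bar). Black lines give the median and dotted lines the 75th percentile of coding genes of the same size class. The 4 class IIa genes and Hdac1 lie above the dotted line, with 2 of the 3 Hdac1 peaks in the run at its 3′ end, and Hdac2, Hdac3 and Hdac8 are at 0.

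Of the 75 summits inside class IIa genes, 73 lay in introns, 1 in a coding exon of Hdac9 (chr12:34433031-34433267, score 1094) and 1 in an untranslated or noncoding exon of Hdac5 (chr11:102221730-102221862, score 769). Their scores ran from 147 to 1916 with a median of 623, near the median of 664 over all 58057 peaks away from start sites, and 29 of 75 reached the median of 737 over all summits. The strongest was chr1:91954896-91955285 in an intron of Hdac4, 241 kb downstream of the most upstream start site, with 1916 (99.1st percentile of such peaks). Next came the Hdac4 peak chr1:92052207-92052598 with 1786 and the Hdac7 peak with 1773. In Hdac9 the best scores were 1394, 1308 and 1212. In Hdac5 none exceeded 769, so that the peaks within this gene were low next to its start sites.

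In Hdac4, 19 of the 20 peaks lay in the 252 kb downstream of the coding start site with the strong peak and 1 in the 15 kb upstream, or 7.55 and 6.51 per 100 kb. A stretch of 77.8 kb without any such peak separated the peak of 1916 and its 2 neighbours from the others. In Hdac9, 24 lay in the 388 kb upstream of the coding start site with a peak and 19 in the 481 kb downstream, or 6.18 and 3.95 per 100 kb. The largest gap was 119 kb. A group of 4 peaks around the coding exon summit lay in 1 extended region of 3105 bp and scored 495 to 1094. Hdac9 was also the gene with the nearest coding start site for 36 of its 45 peaks. The remaining 9 were closer in distance to Twist1 or Prps1l1, the genes beyond its ends.

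The summit sequences of the strongest intronic peak away from start sites in Hdac4, Hdac7 and Hdac9 are shown on the minus strand because they carry the highest scores inside these genes away from start sites. They lie at chr1:91955011-91955211, chr15:97825078-97825278 and chr12:34722892-34723092. Capitals mark AP-1 matches in Hdac4 and Hdac7 and, after it, a CTCF match in Hdac7. The Hdac9 window held no match and is in lower case.
Hdac4 intron: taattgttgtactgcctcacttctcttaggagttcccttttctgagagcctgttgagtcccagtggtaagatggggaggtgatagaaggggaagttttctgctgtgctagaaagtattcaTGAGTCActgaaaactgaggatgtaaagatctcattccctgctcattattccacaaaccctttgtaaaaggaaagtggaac
Hdac7 intron: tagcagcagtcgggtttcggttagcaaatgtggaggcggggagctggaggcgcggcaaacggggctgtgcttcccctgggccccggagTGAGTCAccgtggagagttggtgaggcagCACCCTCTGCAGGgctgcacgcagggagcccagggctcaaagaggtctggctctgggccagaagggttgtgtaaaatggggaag
Hdac9 intron: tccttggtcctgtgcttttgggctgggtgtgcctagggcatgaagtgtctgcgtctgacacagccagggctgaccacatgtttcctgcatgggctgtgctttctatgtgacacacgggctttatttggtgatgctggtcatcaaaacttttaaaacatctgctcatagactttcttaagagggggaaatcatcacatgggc

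The 201 bases around the best summit of each peak were searched on both strands for 15 motifs. Among them were AP-1 (TGANTCA), PU.1/ETS (GAGGAAGT), RUNX (TGTGGTT) and C/EBP (TTGCNCAA), and longer patterns for MEF2, CTCF, NF-kB, IRF and STAT6. AP-1 matched in 17 of the 75 windows inside class IIa genes (22.7%), against 23.8% of all peaks away from start sites. PU.1/ETS, the motif of the macrophage lineage factor PU.1, matched in 10 (13.3% against 10.8%) and RUNX in 7 (9.33% against 9.45%). MEF2 matched in 5 windows (6.67% against 3.27%), of which 3 were in Hdac9 and 1 each in Hdac4 and Hdac7. NF-kB matched in 2 (2.67% against 5.73%) and C/EBP in 1 (1.33% against 4.29%). STAT6 matched in 7 (9.33% against 7.83%). These shares rest on few windows, and matches of different motifs may overlap.

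**Figure D4:**
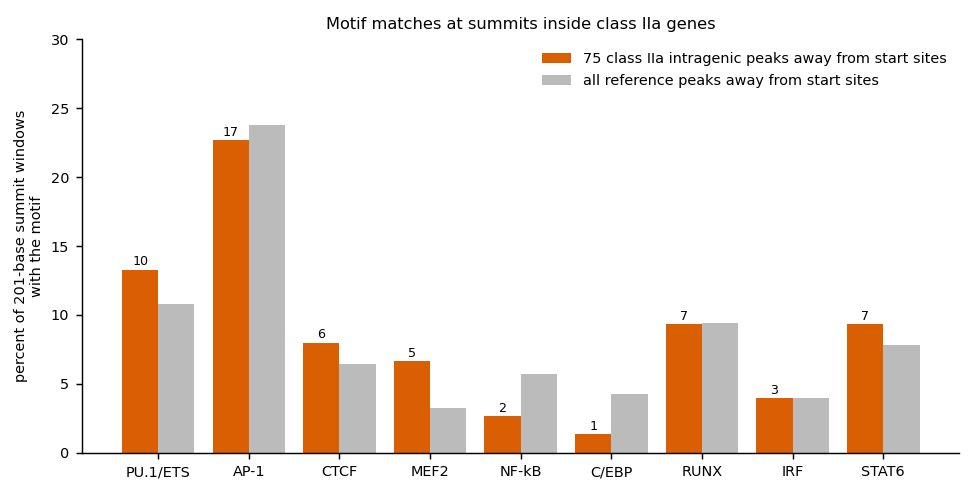
Percent of 201-base summit windows with a match (vertical axis) for the motifs found in at least 3% of all peaks away from start sites (horizontal axis), in the 75 class IIa intragenic peaks (orange, with the number of peaks above each bar) and in all peaks away from start sites (grey). AP-1 is the most frequent in both, at 22.7% and 23.8%.

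At the 7 best start site summits of the members, few motifs matched. Hdac4 had the STAT6 match, Hdac5 the MEF2 match and Hdac9 the AP-1 match, which occurred in 3.31%, 0.683% and 6.02% of the best start site peaks of coding genes. SP/KLF (GGGGCGGGG), found in 19.1% of those, and CTCF, found in 14.3%, matched in 0 of 7. Away from start sites the 109 member peaks resembled other such peaks in composition, with a median GC content of 45.1% against 46.5% and a CpG ratio of 0.182 against 0.193. In 5 of the 109 more than 50% of the window was masked as repeats (4.59%, against 7.67% of all peaks away from start sites).

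Within 50 kb of the most upstream start site, the number of extended regions ranged from 1 to 13. Hdac1 had 13, Hdac5 had 11, Hdac3 had 10, Hdac7 had 8, Hdac4 had 6, Hdac2 had 2, and Hdac8 and Hdac9 had 1 each. The median was 7, against 4 (interquartile range 1 to 8) over all coding genes. Hdac1 stood at the 95.8th, Hdac5 at the 90.3rd and Hdac3 at the 86.3rd percentile. The low count of Hdac9 depended on the chosen start site. Around its coding start site with a peak, the same window held 12 extended regions and 13 reference peaks.

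**Figure D5:**
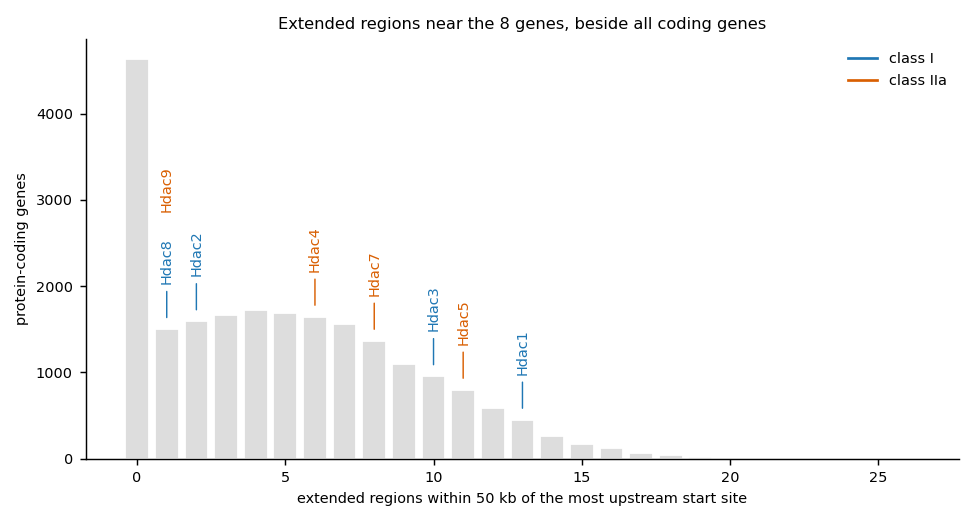
Number of extended regions within 50 kb of the most upstream start site (horizontal axis) over all coding genes (grey bars, number of genes on the vertical axis), with the 8 deacetylase genes marked at their counts (class I in blue, class IIa in orange). Hdac1 lies at 13, and Hdac8 and Hdac9 lie together at 1.

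Peaks at start sites of other coding genes made up 4 of the 24 peaks around Hdac1, 7 of 15 around Hdac3 and 6 of 16 around Hdac5, while 15, 7 and 8 lay away from any start site. All 3 coding neighbours of Hdac1 in its window had a start site peak, namely Lck (900), Marcksl1 (1657) and Fam167b (990). Its best peaks away from start sites, 1864 and 1632, lay 46.8 and 45.9 kb downstream of the Hdac1 start site and were nearest to Fam229a. Around Hdac5 the coding neighbours BC030867 (979), G6pc3 (1505), Asb16 (845) and Lsm12 (1224) had start site peaks. Its best peaks away from start sites, 1619 and 1248, lay 15.1 and 16.3 kb upstream and nearest to BC030867. The only coding neighbour of Hdac7, Vdr, had none, and all 10 peaks around Hdac7 lay away from start sites. Hdac2, Hdac4, Hdac8 and Hdac9 had no coding neighbour in their windows.

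Hdac4 thus had its flank to itself, and a group of strong peaks lay upstream of it. Between 92215449 and 92225659 on chr1, 5 peaks scored 1153, 1456, 1200, 544 and 1443. The first 4 shared an extended region of 3441 bp, and Hdac4 was the gene with the nearest coding start site for all 5, as for each of its 27 peaks. Over all members, the nearest coding start site was the member's own for 84 of 140 peaks, 78 of them at class IIa genes and 6 at class I genes.

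The genes of the proteins that work with these enzymes were taken as lists. Of 37 genes for subunits of the class I complexes, 36 had a start site peak, against 56.5% of all coding genes, with a median best score of 1838 against 1456. All 14 SIN3 genes had one, led by Sin3a (2310), Sap130 (2297) and Arid4b (2232). In the NuRD complex the count was 8 of 9, with Mta3 as the exception and Gatad2a (2442), Gatad2b (2297) and Mbd3 (2061) highest. In the CoREST and MiDAC complexes it was 9 of 9, with Hmg20b at 2061 and Rcor1 at 2021. In the NCoR complex it was 5 of 5, with 1406 at Ncor1 and 1332 at Tbl1xr1. Beside the median over all 37 genes, Hdac1 was higher at 1969 and Hdac2 lower at 900. Hdac3, at 1308, was close to the median of 1332 over the 5 NCoR genes.

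For class IIa, 17 of 21 partner genes had a start site peak, again against 56.5% of coding genes, with a median best score of 1773 against 1456. The MEF2 factors had one in 4 of 4, with Mef2d (2008), Mef2c (1851) and Mef2b (1773) highest. Of the kinases that phosphorylate class IIa enzymes 7 of 10 had one, led by the salt-inducible kinases Sik2 (1982), Sik1 (1955) and Sik3 (1786), whereas Camk4, Prkd1 and Prkd3 had none. Of the 14-3-3 genes 6 of 7 had one, with Ywhab (2193), Ywhaq (2100) and Ywhaz (2048) highest and Sfn without.

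The other deacetylases served as a comparison within the enzyme family. The class IIb and IV genes Hdac6, Hdac11 and Hdac10 had start site scores of 1708, 1468 and 748. All 7 sirtuins, which use NAD as a cofactor, had a start site peak, with Sirt2 (1955), Sirt1 (1594) and Sirt4 (1468) highest and a median of 1284. Among the deacetylase genes of all classes listed here, Hdac7 was the only gene without a peak within 1000 bp of a start site, and Hdac8 had the lowest score of those with a peak.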

How the data were processed

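ATAC-seq libraries of BMDMs (18, in 9 groups of 2) had been trimmed by the authors with Trimmomatic 0.39, mapped to mm10 with the mapping step of ShortStack, filtered with SAMtools 1.9 and called with MACS2 2.2.6 with duplicates kept. Only calls with a very low q-value in single libraries that also overlapped widely between replicates entered the reference set, as given in the study's methods and the submitters' processing notes. The 3 deposited lists hold positions and, for summits, a score by the authors whose scale is not stated, so scores were only ranked within the list. As no list holds values per library, depth is unknown and neither replicates nor stimuli could be compared. Repeated sequence and kept duplicates can raise a score.

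Peaks were joined here to GENCODE M21 with Python 3.11.15, numpy 2.4.6 and pandas 2.3.3, counting 1 base of overlap, and figures were drawn with matplotlib 3.10.9. Sequence came from GRCm38.p6, whose 21 chromosomes hold all listed peaks, and promoters from the RefSeq table, which has no entry for Hdac1 and Hdac3. A percentile counts genes or peaks below a value, with ties split evenly. Base composition was taken over 250 bp and motifs over 100 bp on each side of the best summit. Uniqueness was counted for the 76 and 38 bases centred on each summit. The counting was tested on simulated intervals. Named were all 8 members, list genes without a start site peak and the 3 highest per list, up to 3 neighbours per window (all 4 are given for Hdac3 and Hdac5) and the 3 best peaks away from start sites; further peaks and neighbours named were chosen after their values were seen. Some list genes that this rule names are not reported here. Members and lists were chosen with earlier results of these data known. Alternatives were other windows, start sites, score limits and overlap rules.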

Additional observations from a re-analysis of the deposited data

How the results depend on the processing

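No paired analysis was possible because the lists are pooled over all libraries, and leaving out replicates was not run for the same reason. Of 30 alternative values, 20 stayed within 1.5 times the reported one (the median score, unless equal, counted as changed) and 10 did not. With only peaks whose summit reached the median score of all summits, 72 peaks remained in the windows instead of 140, 29 instead of 75 inside class IIa genes away from start sites, and the median number of extended regions per gene was 3.50 instead of 7. This number was 3 within 20 kb and 12.5 within 100 kb. With gene bodies only, 91 peaks were counted, and 84 when the nearest coding start site had to be that of the member. Gene bodies taken from the longest protein-coding transcript held 50 instead of 75 class IIa peaks away from start sites. That value was still counted as within 1.5 times. The median best start site score of 1308 became 1248 with a limit of 2500 bp, where Hdac7 gains a peak. Windows around the coding start sites of Hdac4 and Hdac9, and leaving out the run of peaks in Hdac1, were chosen after seeing the data. The first raised the extended regions of Hdac9 from 1 to 12, the second lowered the class I intragenic peaks away from start sites from 3 to 1. With that, Hdac1 went from 11.3 to 3.76 and class I from 1.02 to 0.340 such peaks per 100 kb. Since depth is unknown and the q-value and replicate filters were strict, a site missing from the lists cannot be called closed.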
